A study of Mus musculus with 16 samples.

Results

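Chromatin remodeler and bromodomain genes were examined in mouse CD8+ T cells, as the 46 of 34573 gene symbols in the deposited count matrix that begin with Smarc, Arid and a digit, Chd and a digit, Brd and a digit, or Ino80. The set holds 14 Smarc genes, 10 Arid genes, 10 Chd genes, 7 Brd genes and 5 Ino80 genes. Of the 46 genes, 44 passed the filter on low counts and were tested. Smarca1 had 0 counts in all 12 libraries, and Arid3c stayed between 0 and 0.238 CPM (counts per 1000000) and was filtered out. Genes entered the set by name and not by a measured value, but the set was chosen with earlier results of these data known.

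The study profiled naive CD8+ T cells and their in vitro progeny by RNA-seq and by Hi-C, of which the RNA-seq libraries were analysed here. All cells came from C57BL/6 spleens and each library was made from 200000 cells. Cultured cells were stimulated with antibodies to CD3e and CD28, both at 10 μg/ml, and received 300 U/ml recombinant IL-2 overnight after the start. No group was infected or given a tumour, so the 4 states are stages and sorted fractions of 1 culture system. Tn cells were taken at day 0 and sorted as CD8+, CD44-, CD62L+. Teff1 cells were taken at day 2 and sorted as CD8+, PD-1+, TIM-3-. Tex and Teff2 cells were both taken at day 5, Tex sorted as CD8+, PD-1+, TIM-3+ and Teff2 as CD8+, PD-1+, TIM-3-. Each state had 3 libraries of 14668884 to 21162206 counts. The labels do not say whether the 3 come from separate animals or cultures, so each p-value measures only the spread between these libraries, which may be technical.

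Chromatin remodelers use the energy of ATP to slide, evict or exchange nucleosomes. The SWI/SNF (BAF) complexes combine 1 Smarca ATPase with Smarc scaffold subunits and an Arid subunit. The ISWI and Chd ATPases space nucleosomes, and the INO80 complex is a further type of remodeler. Bromodomain proteins bind acetylated histones, and the BET group links them to transcription elongation. Remodelers of the BAF and NuRD types are known to take part in T cell development, activation and lineage choice.

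Some libraries stood apart from the others of their state. In Tn replicates 1 and 3, a list of 6 B cell markers summed to 432 and 842 CPM and 4 MHC class II genes to 1343 and 2028 CPM. In Tn replicate 2 they summed to 36.6 and 112 CPM. In the 9 cultured libraries the 6 B cell markers stayed between 5.56 and 10.1 CPM, and the 4 MHC class II genes between 29.1 and 121 CPM. CD8 T cell markers summed to 2041 to 4252 CPM in all 12 libraries. Of the other marker lists, macrophage and monocyte genes had 61.2 to 216 CPM in Tn and up to 11.6 CPM elsewhere. Erythroid genes had 36.7 to 80.5 CPM in Tn and up to 3.15 CPM elsewhere. Neutrophil genes stayed at or below 4.57 CPM, CD4 T cell genes lay between 6.06 and 127 CPM, and the NK cell list, which holds genes that activated CD8+ T cells also express, lay between 91.4 and 488 CPM. Replicate 1 of Tex and of Teff2 had lower G2 and M phase transcripts than the other 2 libraries of its state, with a median deviation of -1.87 and -2.45 on the log2 scale. Counts are therefore also given with Tn replicate 2 as the sole Tn library, and without replicate 1 of the 3 cultured states.

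Against Tn, more of the genes fell than rose in each cultured state. In Teff1, 9 of 44 genes rose and 13 fell, where 24.5% of all 14332 genes tested rose and 24.5% fell. Those Teff1 counts lay near the shares of all genes, so they are not read as a trait of the set. In Tex, 6 rose and 16 fell, with 27.3% of all genes higher and 25.6% lower. In Teff2, 6 rose and 18 fell, with 25.6% of all genes higher and 23.3% lower. These calls rest on an adjusted p under 0.05 in edgeR's quasi-likelihood test. Of them, 2 higher and 7 lower genes in Teff1 changed at least 2-fold (15.9% and 17.2% of all genes), 2 and 10 in Tex (19.2% and 18.1%), and 2 and 8 in Teff2 (17.5% and 15.7%). The median log2 fold change of the 44 genes was -0.22 in Teff1, -0.38 in Tex and -0.35 in Teff2, beside -0.06, 0.00 and 0.00 over all genes. As bulk RNA-seq averages a sample, fewer cells of a type and less RNA per cell cannot be told apart in any of these values.

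With Tn replicate 2 alone as the naive library, 4 genes rose and 9 fell in Teff1, 4 rose and 12 fell in Tex, and 4 rose and 9 fell in Teff2. Every gene called in the full comparison kept its sign against that library. Calls lost against it included those of Arid1b, Arid2, Arid4b, Brd2, Chd2 and Smarca5 in Teff2. Brd2, Chd2 and Smarca5 lost theirs in Tex as well. Without replicate 1 of the 3 cultured states, the counts were 11 higher and 16 lower in Teff1, 9 and 19 in Tex, and 8 and 20 in Teff2. Upper-quartile scaling shifted the median log2 fold change of all genes by -0.14 in Teff1, -0.12 in Tex and -0.11 in Teff2, and under it 8 genes rose and 18 fell in Teff1.

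The 3 comparisons share the Tn libraries, so their calls are given side by side. Arid3a, Arid5a, Smarca5, Smarcad1, Smarcb1 and Smarcc1 were higher in all 3 cultured states, 6 genes in all. The 11 genes that were lower in all 3 were Arid1a, Arid3b, Arid4a, Arid4b, Arid5b, Brd1, Brd2, Chd3, Chd6, Chd8 and Smarca2. Arid1b, Arid2, Chd2 and Ino80d were called lower at day 5 in both Tex and Teff2, and Chd7 and Smarcd2 in Teff2. Chd9 and Ino80b were called lower in Teff1, and Brd7, Chd4 and Ino80e higher in Teff1. No call was made in any of the 3 for Brd3, Brd8, Brd9, Chd1, Chd1l, Chd5, Ino80, Ino80c, Smarca4, Smarca5-ps, Smarcal1, Smarcc2, Smarcd1, Smarcd3 and Smarce1.

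**Figure D1:**
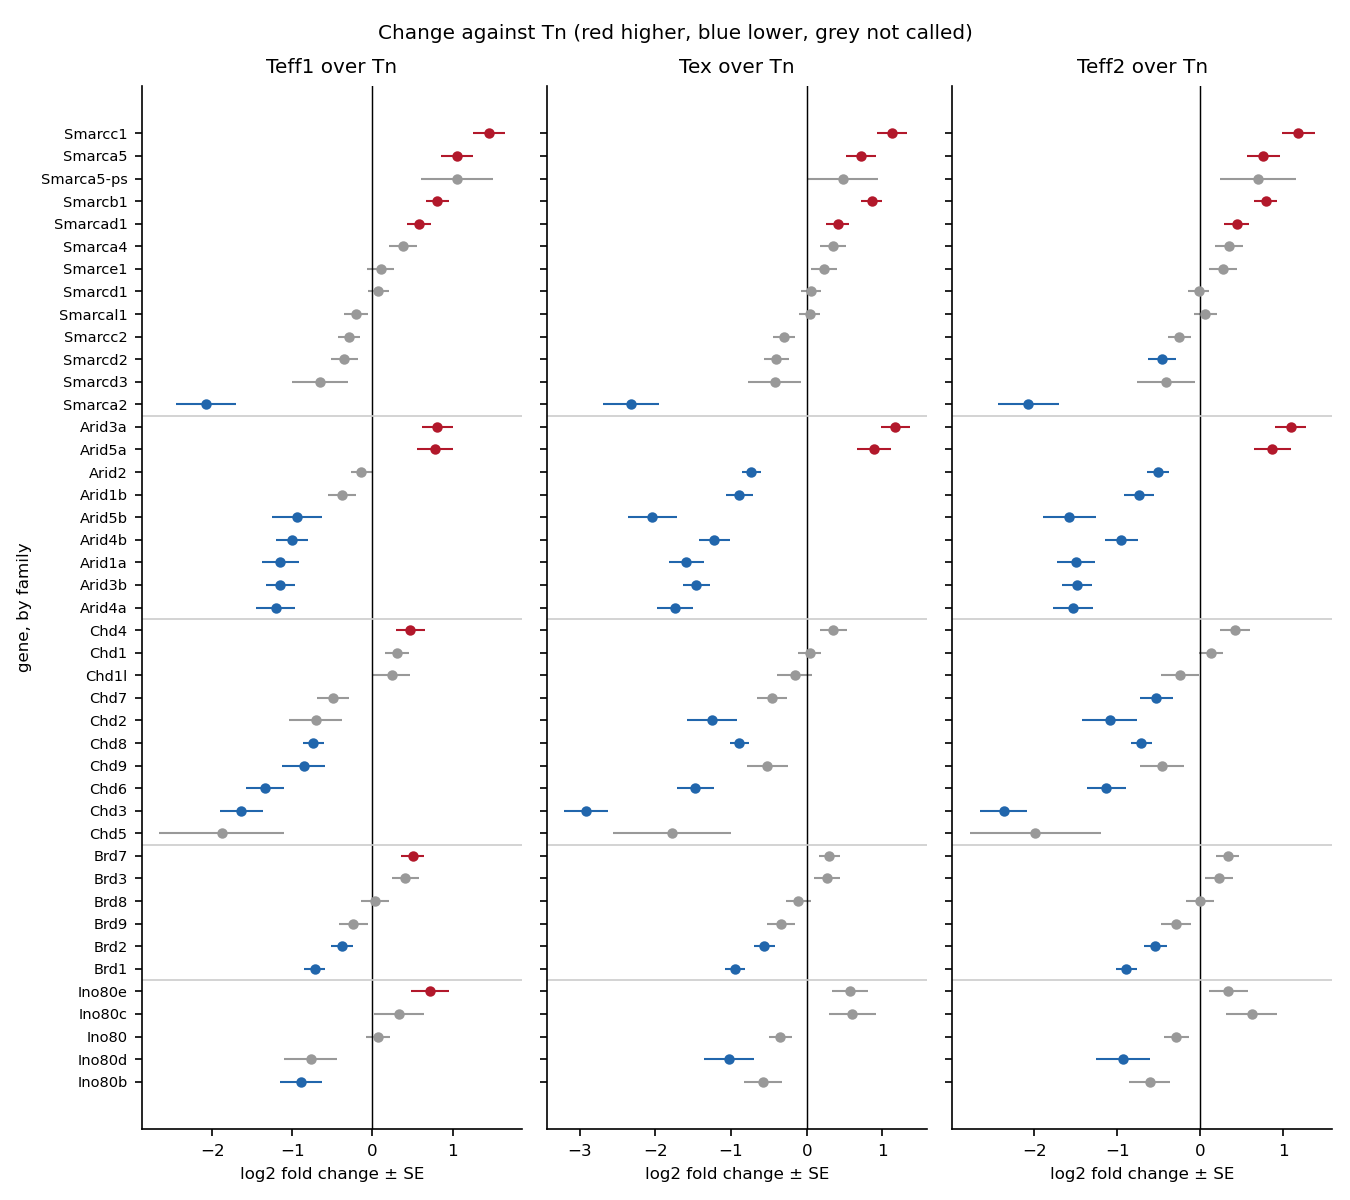
Log2 fold change with its standard error for 43 tested genes, in rows by family, in Teff1, Tex and Teff2 over Tn (x axes differ in range). Red genes were called higher and blue genes lower at an adjusted p under 0.05; the Smarc rows hold 4 of the 6 genes that rose in all 3 states, and the Arid and Chd rows hold most of the blue points.

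Counts by family are read beside the shares of all genes that rose and fell. These were 24.5% and 24.5% in Teff1, 27.3% and 25.6% in Tex, and 25.6% and 23.3% in Teff2. The families are small, and several of their counts lie near these shares. Of 13 tested Smarc genes, 4 rose and 1 fell in Teff1, 4 rose and 1 fell in Tex, and 4 rose and 2 fell in Teff2. Of 9 Arid genes, 2 rose and 5 fell in Teff1, and 2 rose and 7 fell in both Tex and Teff2, so that at day 5 no Arid gene was left without a call. Of 10 Chd genes, 1 rose and 4 fell in Teff1, 4 fell in Tex and 5 fell in Teff2. Of 7 Brd genes, 1 rose and 2 fell in Teff1, and 3 fell in each day 5 state. Of 5 Ino80 genes, 1 rose and 1 fell in Teff1, and 1 fell in each day 5 state. No test of the differences between families was made.

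With TMM scaling in edgeR, Arid genes had the lowest median log2 fold change and Smarc genes the highest in each of the 3 states. The Arid median was -0.94 in Teff1, -1.22 in Tex and -0.95 in Teff2. The Chd median was -0.73, -0.71 and -0.62 in the same states, and the Brd median was -0.20, -0.34 and -0.29. The Smarc median was 0.10, 0.23 and 0.27, and it was -0.04 in Teff1 under upper-quartile scaling. The Ino80 median was 0.07 in Teff1 (-0.07 under upper-quartile scaling), -0.35 in Tex and -0.29 in Teff2. Under DESeq2, which held 10 Arid genes, the Teff1 median was -0.65 for Arid and -0.72 for Chd, so Arid was not the lowest there.

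**Figure D2:**
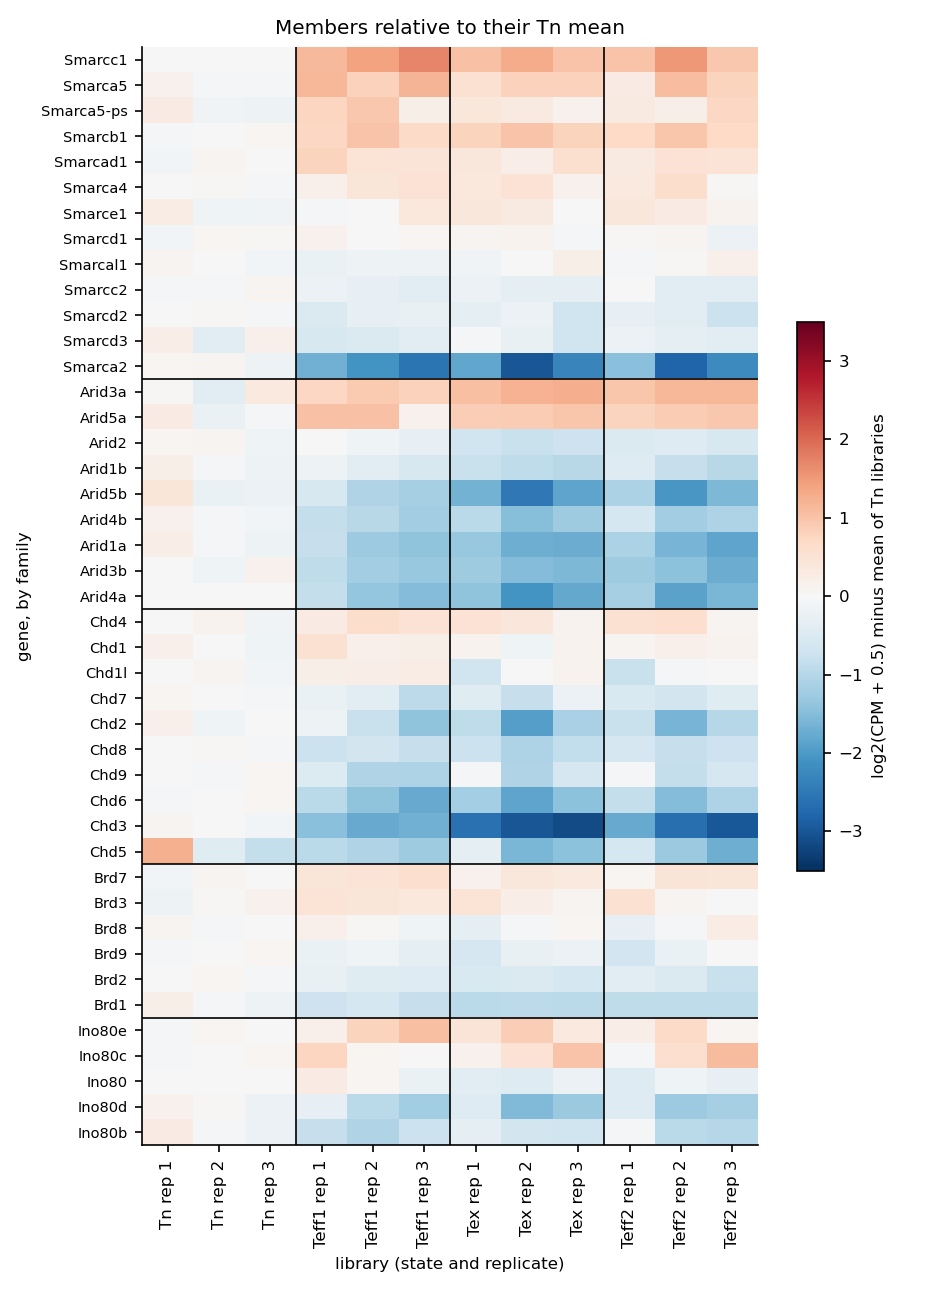
Log2(CPM + 0.5) of a gene minus its mean over the 3 Tn libraries, for 43 genes and the 12 libraries in columns, with genes in rows by family. Smarca2, Chd3 and most Arid genes are blue in all 9 cultured libraries, and Smarcc1, Smarca5 and Smarcb1 are red in all 9.

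For 5 genes called in all 3 comparisons, 3 that rose and 2 that fell, the 150 bases before the RefSeq start are shown (assembly GRCm38.p6, read 5′ to 3′ on the gene's strand) as examples of both directions of change. They were taken from genes whose listed start is the outermost start of the gene in RefSeq, so that the window holds no annotated transcribed base. Capitals mark CCGGAAG, the ETS-type motif, or CCAAT. In order they lie at chr9:110131874-110132023 (+), chr10:75921615-75921764 (-), chr8:80739460-80739609 (-), chr4:133756770-133756919 (-) and chr2:161109087-161109236 (-).
Smarcc1: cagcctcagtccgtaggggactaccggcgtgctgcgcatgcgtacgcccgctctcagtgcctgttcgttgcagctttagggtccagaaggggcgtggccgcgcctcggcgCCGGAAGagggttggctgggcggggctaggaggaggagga
Smarcb1: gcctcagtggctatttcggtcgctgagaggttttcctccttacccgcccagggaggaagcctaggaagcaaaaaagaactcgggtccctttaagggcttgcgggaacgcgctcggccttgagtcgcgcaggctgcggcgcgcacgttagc
Smarca5: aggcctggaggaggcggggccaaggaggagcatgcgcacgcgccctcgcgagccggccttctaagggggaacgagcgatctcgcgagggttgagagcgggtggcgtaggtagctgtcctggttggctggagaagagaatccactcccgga
Arid1a: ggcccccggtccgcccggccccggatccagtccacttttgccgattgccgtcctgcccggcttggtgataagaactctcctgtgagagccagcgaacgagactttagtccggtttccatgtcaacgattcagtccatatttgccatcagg
Chd6: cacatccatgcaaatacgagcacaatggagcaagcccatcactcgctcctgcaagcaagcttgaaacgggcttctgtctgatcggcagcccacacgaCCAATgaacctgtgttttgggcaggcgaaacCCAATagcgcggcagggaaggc

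Of the 46 genes, 33 have a promoter entry. Both strands of their 150 bases were searched for the motifs above and for the E-box, spelled CACGTG. The E2F-type words searched were TTTCCCGC, TTTGGCGC and TTTCGCGC. CCGGAAG occurred in 5 of 33 (15.2%), beside 11.6% of 9267 tested genes and 5.68% of all 27025 promoters. CCAAT occurred in 7 of 33 (21.2%), beside 28.7% and 25.3%, and CACGTG in 0 of 33, beside 6.09% and 4.3%. TTTCCCGC occurred in 2 of 33, Brd7 and Smarcd1, beside 1.24% and 0.629%, and neither of the other E2F-type words occurred. The median GC content was 66.7%, beside 62.7% for tested genes and 54.0% for all. These are matches of letters in a fixed window, and no factor's binding was measured.

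The SWI/SNF ATPases Smarca2 (BRM) and Smarca4 (BRG1), which occupy the same place in the complex, behaved differently. Smarca2 had 222, 226 and 188 CPM in Tn, 65.4, 49.2 and 35.5 CPM in Teff1, 59.7, 26.1 and 41.8 CPM in Tex, and 76.7, 29.9 and 44.8 CPM in Teff2. All 9 cultured libraries lay below all 3 Tn libraries. The log2 fold change (± SE) was -2.08 ± 0.37 in Teff1 (adjusted p = 0.000828), -2.32 ± 0.37 in Tex (adjusted p = 0.000369) and -2.07 ± 0.37 in Teff2 (adjusted p = 0.000824). Smarca4 had 215, 219 and 205 CPM in Tn, 239, 287 and 305 CPM in Teff1, 274, 301 and 237 CPM in Tex, and 271, 328 and 218 CPM in Teff2. Its cultured libraries reached from just below the highest Tn library upwards, and it was called in no comparison (log2 0.38 ± 0.17 in Teff1, adjusted p = 0.0872). Smarca4 did pass the test in Teff1 without Teff1 replicate 1 (0.49, adjusted p = 0.0464) or Teff2 replicate 2 (0.45, adjusted p = 0.037), in Tex without Teff2 replicate 2 (0.43, adjusted p = 0.0392), and in Teff2 without Teff2 replicate 3 (0.51, adjusted p = 0.0374).

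Among the core subunits, Smarcc1 (BAF155), a scaffold of the complex, rose the most. It had 76.2, 77.5 and 75.1 CPM in Tn, 168, 205 and 252 CPM in Teff1, 156, 190 and 152 CPM in Tex, and 153, 219 and 147 CPM in Teff2, so that no cultured library overlapped Tn. The log2 fold change was 1.45 ± 0.20 in Teff1 (2.73-fold, adjusted p = 0.00016), 1.13 ± 0.20 in Tex (2.18-fold) and 1.18 ± 0.20 in Teff2 (2.27-fold). Its paralog Smarcc2 (BAF170) had 203 to 227 CPM in Tn, 161 to 184 CPM in Teff1, 166 to 183 CPM in Tex and 162 to 208 CPM in Teff2. Smarcc2 was not called (log2 -0.29 ± 0.14 in Teff1, adjusted p = 0.0997), though upper-quartile scaling and the 2 CPM filter called it lower in Teff1 and Tex.

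Smarcb1 (SNF5), another core subunit, had 57.3 to 63.4 CPM in Tn, 96.0 to 121 CPM in Teff1, 104 to 122 CPM in Tex and 97.9 to 118 CPM in Teff2. No cultured library overlapped Tn, and the rise was 0.81 ± 0.14 in Teff1, 0.86 ± 0.14 in Tex and 0.79 ± 0.14 in Teff2 on the log2 scale. Of the BAF60 subunits, Smarcd1 stayed between 43.8 and 56.2 CPM in all libraries. Smarcd2 had 193 to 204 CPM in Tn, 139 to 164 CPM in Teff1, 122 to 170 CPM in Tex and 116 to 163 CPM in Teff2, and was called lower in Teff2 (-0.46 ± 0.17, adjusted p = 0.0383). That Smarcd2 call was lost without any 1 of Tn replicates 1, 2 and 3, Teff1 replicate 2, Tex replicate 1, or Teff2 replicates 2 and 3 (adjusted p 0.0514 to 0.166). Smarcd3 stayed between 1.30 and 2.92 CPM, and Smarce1 (BAF57) between 86.4 and 126 CPM, with no call.

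**Figure D3:**
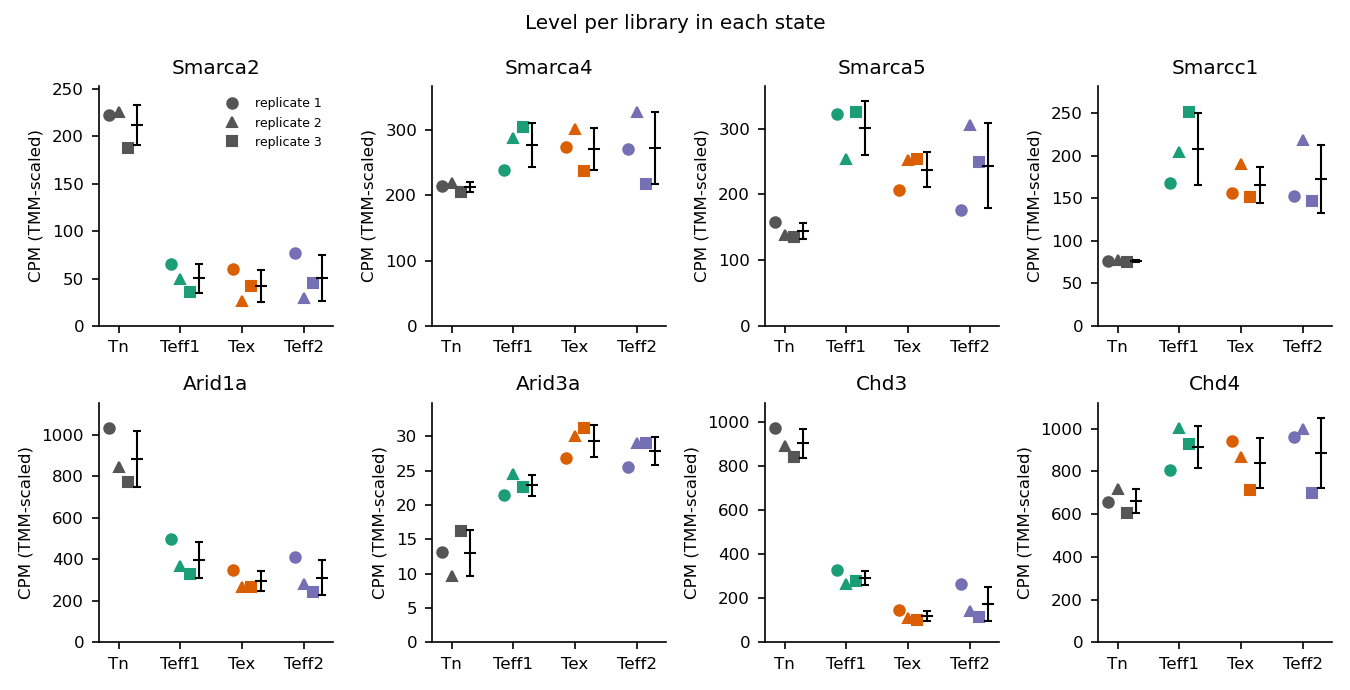
CPM per library of 8 genes in the 4 states, with replicate 1, 2 and 3 as circle, triangle and square and the mean ± SD beside them; each y axis starts at 0. Smarca2, Arid1a and Chd3 lie lower in every cultured library than in Tn, while Smarcc1, Smarca5 and Arid3a lie higher.

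Smarca5 (SNF2H), the ISWI ATPase, had 158, 138 and 136 CPM in Tn, 323, 254 and 326 CPM in Teff1, 207, 252 and 254 CPM in Tex, and 177, 306 and 249 CPM in Teff2. Each cultured library exceeded the highest Tn library. The log2 fold change was 1.06 ± 0.20 in Teff1, 0.72 ± 0.20 in Tex and 0.76 ± 0.20 in Teff2 (adjusted p = 0.00119, 0.00922 and 0.00784 in that order), and with Tn replicate 2 as the sole Tn library the values in Tex (0.77, adjusted p = 0.106) and Teff2 (0.81, adjusted p = 0.101) were not called. Its paralog Smarca1 (SNF2L) had no count in any library. Smarca5-ps, a pseudogene copy of Smarca5, stayed between 0.430 and 1.52 CPM, and how the counting split reads between the copies is not given in the sources used here.

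Smarcad1, an ATPase with a role in DNA end resection, had 29.5 to 33.7 CPM in Tn, 43.6 to 54.9 CPM in Teff1, 37.7 to 47.4 CPM in Tex and 39.4 to 45.4 CPM in Teff2, with no overlap with Tn. It rose by 0.58 ± 0.15 in Teff1, 0.41 ± 0.15 in Tex (adjusted p = 0.0403) and 0.44 ± 0.15 in Teff2 (adjusted p = 0.0325). The Tex call was lost without Tn replicate 1, 2 or 3 or Tex replicate 1 or 3 (adjusted p 0.0593 to 0.134), and the Teff2 call without Tn replicate 1, 2 or 3 or Teff2 replicate 2 or 3 (adjusted p 0.0548 to 0.104). Smarcal1, an annealing helicase of stalled replication forks, stayed between 30.7 and 42.0 CPM and was not called.

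Of the Arid subunits of SWI/SNF, Arid1a, which defines the canonical BAF complex together with its alternative Arid1b, fell the most. Arid1a had 1031, 844 and 773 CPM in Tn, 497, 366 and 330 CPM in Teff1, 349, 267 and 265 CPM in Tex, and 409, 283 and 245 CPM in Teff2. Every cultured library lay below the lowest Tn library, and replicate 1 was the highest library in each state. The log2 fold change was -1.15 ± 0.23 in Teff1 (adjusted p = 0.00172), -1.59 ± 0.23 in Tex (adjusted p = 0.000205) and -1.50 ± 0.23 in Teff2 (adjusted p = 0.000344).

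Arid1b had 120 to 158 CPM in Tn, 92.3 to 121 CPM in Teff1, 68.7 to 79.5 CPM in Tex and 68.9 to 100 CPM in Teff2. It was called lower in Tex (-0.89 ± 0.18) and Teff2 (-0.74 ± 0.18), and in Teff1 it overlapped Tn (-0.38 ± 0.17, adjusted p = 0.0922). Arid2, the PBAF subunit, had 115 to 137 CPM in Tn, 106 to 131 CPM in Teff1, 74.8 to 79.4 CPM in Tex and 86.8 to 94.2 CPM in Teff2. It too was called lower in Tex (-0.73 ± 0.13) and Teff2 (-0.51 ± 0.13) and overlapped Tn in Teff1 (-0.14 ± 0.13).

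The DNA-binding paralogs Arid3a (Bright) and Arid3b changed in opposite directions. Arid3a had 13.1, 9.67 and 16.3 CPM in Tn, 21.4, 24.5 and 22.7 CPM in Teff1, 26.8, 30.0 and 31.2 CPM in Tex, and 25.5, 29.0 and 29.1 CPM in Teff2. Arid3b had 75.7, 69.1 and 85.6 CPM in Tn, 40.7, 32.7 and 30.2 CPM in Teff1, 32.0, 26.2 and 25.6 CPM in Tex, and 31.8, 28.2 and 22.7 CPM in Teff2. Neither gene's cultured libraries overlapped Tn. Arid3a rose by 0.81 ± 0.19 in Teff1, 1.17 ± 0.19 in Tex and 1.09 ± 0.19 in Teff2, and the Arid3b log2 fold change was -1.15 ± 0.18, -1.46 ± 0.18 and -1.48 ± 0.18 in the same states.

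Arid5a, an RNA-binding protein known to stabilise cytokine mRNA, and Arid5b, a partner of the histone demethylase Phf2, also went opposite ways. Arid5a had 179, 124 and 143 CPM in Tn, 301, 301 and 163 CPM in Teff1, 265, 272 and 291 CPM in Tex, and 253, 275 and 285 CPM in Teff2. Teff1 replicate 3 lay within the Tn range, and the Teff1 call (0.78 ± 0.22, adjusted p = 0.0125) was lost without Tn replicate 2 (adjusted p = 0.0547). The day 5 libraries lay above Tn, with 0.89 ± 0.22 in Tex and 0.87 ± 0.22 in Teff2.

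Arid5b had 49.5, 31.6 and 32.3 CPM in Tn, 25.1, 17.5 and 16.3 CPM in Teff1, 11.5, 6.16 and 9.94 CPM in Tex, and 16.9, 8.71 and 12.2 CPM in Teff2, with no overlap with Tn. Its log2 fold change was -0.94 ± 0.31 in Teff1 (adjusted p = 0.0244), -2.04 ± 0.32 in Tex and -1.58 ± 0.32 in Teff2. The Teff1 call was lost without Tn replicate 1, Teff1 replicate 2 or Teff1 replicate 3 (adjusted p 0.0826 to 0.108).

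Arid4a and Arid4b, subunits of the Sin3 histone deacetylase complex, fell together. Arid4a had 180, 176 and 176 CPM in Tn, 99.7, 69.0 and 61.8 CPM in Teff1, 66.8, 40.9 and 51.3 CPM in Tex, and 78.3, 47.8 and 58.4 CPM in Teff2. Arid4b had 148, 128 and 126 CPM in Tn, 74.6, 68.4 and 56.9 CPM in Teff1, 69.3, 47.0 and 55.7 CPM in Tex, and 87.7, 57.7 and 62.9 CPM in Teff2. All cultured libraries of both genes lay below Tn. The log2 fold change of Arid4a was -1.21 ± 0.24 in Teff1, -1.74 ± 0.24 in Tex and -1.53 ± 0.24 in Teff2, and that of Arid4b was -1.01 ± 0.20, -1.22 ± 0.20 and -0.95 ± 0.20.

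Within the Chd family, the NuRD ATPase Chd3 had the largest fall of all 44 genes at day 5. It had 974, 895 and 845 CPM in Tn, 327, 266 and 280 CPM in Teff1, 147, 112 and 102 CPM in Tex, and 264, 145 and 114 CPM in Teff2. The Tn libraries were far above all others, and every Teff1 library exceeded every day 5 library. The log2 fold change was -1.64 ± 0.27 in Teff1 (adjusted p = 0.000564), -2.91 ± 0.29 in Tex (adjusted p = 1.41e-05) and -2.37 ± 0.28 in Teff2 (adjusted p = 5.66e-05).

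Chd4, the alternative NuRD ATPase, had 659, 716 and 605 CPM in Tn, 808, 1002 and 928 CPM in Teff1, 943, 866 and 714 CPM in Tex, and 960, 997 and 698 CPM in Teff2. Teff1 lay above Tn while the lowest library of each day 5 state lay within the Tn range. Chd4 was called higher in Teff1 (0.47 ± 0.18, adjusted p = 0.0459), and this call was lost without Tn replicate 1, 2 or 3, Teff1 replicate 2 or 3, or Tex replicate 2 (adjusted p 0.0501 to 0.137) and under upper-quartile scaling. Without Teff2 replicate 3 it was also called higher in Teff2 (0.58, adjusted p = 0.0227).

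Chd6, Chd8 and, at day 5, Chd2 fell as well. Chd6 had 149, 152 and 162 CPM in Tn, 80.2, 57.6 and 45.2 CPM in Teff1, 67.8, 42.6 and 56.4 CPM in Tex, and 85.6, 53.5 and 72.0 CPM in Teff2, with no overlap with Tn. Chd6 had a log2 fold change of -1.34 ± 0.24 in Teff1, -1.47 ± 0.24 in Tex and -1.13 ± 0.24 in Teff2. Chd8, a regulator of Wnt target genes, had 266 to 280 CPM in Tn, 154 to 174 CPM in Teff1, 129 to 161 CPM in Tex and 154 to 181 CPM in Teff2 (-0.74 ± 0.13, -0.89 ± 0.13 and -0.71 ± 0.13). Again no cultured library reached Tn.

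Chd2 had 431, 345 and 375 CPM in Tn, 335, 221 and 145 CPM in Teff1, 207, 101 and 175 CPM in Tex, and 224, 124 and 191 CPM in Teff2. Its libraries were below Tn in each state but spread widely, and it was called in Tex (-1.25 ± 0.33, adjusted p = 0.00759) and Teff2 (-1.09 ± 0.33, adjusted p = 0.0166), not in Teff1 (-0.71 ± 0.33, adjusted p = 0.0906). The Teff2 call was lost without Tn replicate 1 or Teff2 replicate 2 (adjusted p 0.0527 and 0.0789), and without Teff1 replicate 1 it was called in Teff1 (-1.05, adjusted p = 0.0239). Its relative Chd1, which binds methylated histone H3 at active promoters, stayed between 162 and 258 CPM and was not called.

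Chd9 had 67.6 to 75.5 CPM in Tn, 33.5 to 51.0 CPM in Teff1, 34.2 to 68.7 CPM in Tex and 39.6 to 68.5 CPM in Teff2. Chd9 was called lower in Teff1 (-0.86 ± 0.27, adjusted p = 0.0221), a call lost without Tn replicate 1 or 3 or Teff1 replicate 2 or 3 (adjusted p 0.0507 to 0.0852), while without Tex replicate 1 it was called lower in Tex (-0.80, adjusted p = 0.0262). Chd7 had 238 to 265 CPM in Tn, 133 to 214 CPM in Teff1, 142 to 219 CPM in Tex and 159 to 188 CPM in Teff2. Chd7 was called lower in Teff2 (-0.53 ± 0.20, adjusted p = 0.043), a call lost without any 1 of Tn replicates 1, 2 and 3, Teff1 replicate 2, Tex replicate 1, or Teff2 replicates 1, 2 and 3 (adjusted p 0.0554 to 0.174). It was called lower in Teff1 without Teff1 replicate 1 (-0.62, adjusted p = 0.0326), and in Tex without Teff1 replicate 3 (-0.44, adjusted p = 0.0442) or Tex replicate 3 (-0.59, adjusted p = 0.045). Chd1l (ALC1), which is recruited by poly(ADP-ribose), had 38.9 to 79.8 CPM over all libraries, and Chd5, known mainly from neural tissue, reached 5.44 CPM in Tn replicate 1 and at most 1.48 CPM in the other libraries. Neither was called in the comparisons above. Chd5 was called lower with the replicate block on all 12 libraries in each state, in Teff1 and in Tex also without Tn replicate 3 or Tex replicate 1 (adjusted p 0.0208 to 0.046), and in Teff2 also without Tn replicate 2 or 3, Tex replicate 1 or Teff2 replicate 1 (adjusted p 0.0324 to 0.0471).

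Brd2, of the BET group, had 470 to 506 CPM in Tn, 354 to 403 CPM in Teff1, 315 to 339 CPM in Tex and 285 to 373 CPM in Teff2, with no overlap with Tn. Brd2 was called lower in each state (-0.38 ± 0.14 in Teff1, -0.56 ± 0.14 in Tex and -0.54 ± 0.14 in Teff2). The Teff1 call (adjusted p = 0.039) was lost without Tn replicate 1, 2 or 3, Teff1 replicate 2 or 3, Tex replicate 1, 2 or 3, or Teff2 replicate 2 (adjusted p 0.0584 to 0.122).

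Brd3 had 54.2 to 67.3 CPM in Tn, 78.3 to 84.9 CPM in Teff1, 65.3 to 85.1 CPM in Tex and 62.0 to 87.7 CPM in Teff2. Its Teff1 libraries lay above Tn, but it did not pass the test (0.41 ± 0.17, adjusted p = 0.0582). It passed in 9 of 23 alternatives, among them DESeq2, limma and leaving out Teff2 replicate 1, Teff2 replicate 2 or Tex replicate 1 (adjusted p 0.0287 to 0.0475 for these 3).

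Among the other bromodomain genes of the set, Brd1, a scaffold of histone acetyltransferase complexes, had 246, 206 and 187 CPM in Tn, 129, 137 and 121 CPM in Teff1, 109, 112 and 109 CPM in Tex, and 115, 115 and 114 CPM in Teff2. The states did not overlap with Tn, and the log2 fold change was -0.72 ± 0.13, -0.95 ± 0.13 and -0.89 ± 0.13. Brd7, a PBAF subunit, had 61.2 to 70.1 CPM in Tn, 88.9 to 98.9 CPM in Teff1, 73.2 to 86.3 CPM in Tex and 68.6 to 90.5 CPM in Teff2. It was called higher in Teff1 (0.50 ± 0.14, adjusted p = 0.0131), and not without Tn replicate 1 (adjusted p = 0.0528). Without Teff2 replicate 1 it was called higher in Teff2 as well (0.46, adjusted p = 0.02). Brd9, of the non-canonical BAF complex, stayed between 45.3 and 77.1 CPM and Brd8, of the TIP60 complex, between 102 and 155 CPM, with no call.

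The ATPase Ino80 itself stayed between 81.4 and 137 CPM and was not called. Its accessory subunit Ino80e had 45.2, 49.6 and 47.0 CPM in Tn, 53.0, 81.7 and 99.4 CPM in Teff1, 65.1, 86.2 and 59.9 CPM in Tex, and 55.4, 75.1 and 49.7 CPM in Teff2. It was called higher in Teff1 (0.72 ± 0.24, adjusted p = 0.0249), where the libraries spread from just above Tn upwards, and not without Tn replicate 1, 2 or 3 or Teff1 replicate 2 or 3 (adjusted p 0.0518 to 0.108). It was called higher in Tex without Teff1 replicate 1, Teff1 replicate 3 or Teff2 replicate 2 (adjusted p 0.0248 to 0.0421).

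Ino80b had 63.6, 49.8 and 45.0 CPM in Tn, 29.5, 25.0 and 31.0 CPM in Teff1, 41.0, 33.4 and 31.9 CPM in Tex, and 50.9, 26.7 and 26.1 CPM in Teff2. It was called lower in Teff1 (-0.89 ± 0.26, adjusted p = 0.0131), and not without Tn replicate 1 or Teff1 replicate 2 (adjusted p 0.0565 and 0.0548). Without Teff2 replicate 1 it was called lower in both Tex (-0.56, adjusted p = 0.0184) and Teff2 (-0.99, adjusted p = 0.00219). Ino80d had 194 to 247 CPM in Tn, 95.7 to 182 CPM in Teff1, 75.9 to 163 CPM in Tex and 91.1 to 163 CPM in Teff2, with replicate 1 the highest library of each state. Ino80d was called lower in Tex (-1.03 ± 0.33, adjusted p = 0.02) and Teff2 (-0.93 ± 0.33, adjusted p = 0.0338). The Tex call was lost without Tn replicate 1 or Tex replicate 2 or 3 (adjusted p 0.0588 to 0.0816), and the Teff2 call without Tn replicate 1 or 2 or Teff2 replicate 2 or 3 (adjusted p 0.07 to 0.135). In Teff1 it was called lower without replicate 1 of Teff1, Tex or Teff2 (adjusted p 0.0247 to 0.0487). Ino80c stayed between 28.7 and 65.4 CPM and was not called. It was called higher in Teff2 without Teff2 replicate 1 (0.89, adjusted p = 0.0208), and without replicate 1 of all 3 cultured states in both Tex (0.87, adjusted p = 0.00314) and Teff2 (0.96, adjusted p = 0.00191).

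Related genes, some of which are alternatives for 1 place in a complex, were compared by the log2 ratio of their CPM within each library, with 0.5 CPM added. The level of such a ratio depends on gene length, which the files do not give, so only its difference between states is read. The 6 libraries of Teff1 and Teff2 were set against the 3 of Tn by an exact two-sided permutation test, which cannot give a p below 0.0119, for 16 pairs. It pools day 2 and day 5 libraries and treats all 6 as independent. Teff1 and Teff2 libraries of equal number deviated together in replicates 1 and 2 (r = 0.5 and 0.25), so these p-values may be too small. In 12 pairs the groups did not overlap (exact permutation p = 0.0119, adjusted p = 0.0159 over the 16 pairs), of which Smarca1 to Smarca5 holds the counts of Smarca5 alone, since Smarca1 had none. As 24.5% of all genes rose and 24.5% fell in Teff1, ratios of other genes can separate these groups too, and no share over other pairs was computed. Most of the 12 pairs hold a gene called against the same Tn libraries, so their separation is not evidence apart from those calls.

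The largest shifts were away from Smarca2 and away from Chd3. The log2 ratio of Smarca2 to Smarca4 averaged -2.50 ± 0.66 in Teff1 and Teff2 (SD, n = 6) and -0.01 ± 0.09 in Tn (n = 3), a difference of -2.49 in the exact permutation test (p = 0.0119). The ratio of Chd3 to Chd4 averaged -2.03 ± 0.56 in Teff1 and Teff2 and 0.45 ± 0.12 in Tn, again a difference of -2.49. In Tex, which was not in the test, the Smarca2 ratio was -2.19, -3.50 and -2.49 and the Chd3 ratio -2.68, -2.95 and -2.80.

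The ratio of Arid3a to Arid3b was higher by 2.26 in Teff1 and Teff2 than in Tn, that of Arid5a to Arid5b by 2.05, and that of Smarcc1 to Smarcc2 by 1.56. Chd1 to Chd2 was higher by 1.17, Brd7 to Brd9 by 0.68 and Smarcd1 to Smarcd2 by 0.44. Arid1a to Arid1b was lower, with a difference of -0.78, and so was Chd6 to Chd9 (-0.58). For Smarca1 to Smarca5 the difference was -0.89. Smarcd1 to Smarcd3 (0.42), Arid4a to Arid4b (-0.41) and Chd7 to Chd8 (0.20) overlapped between the groups and were not called, with adjusted p of 0.0544, 0.0544 and 0.178 from the exact permutation test.

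**Figure D4:**
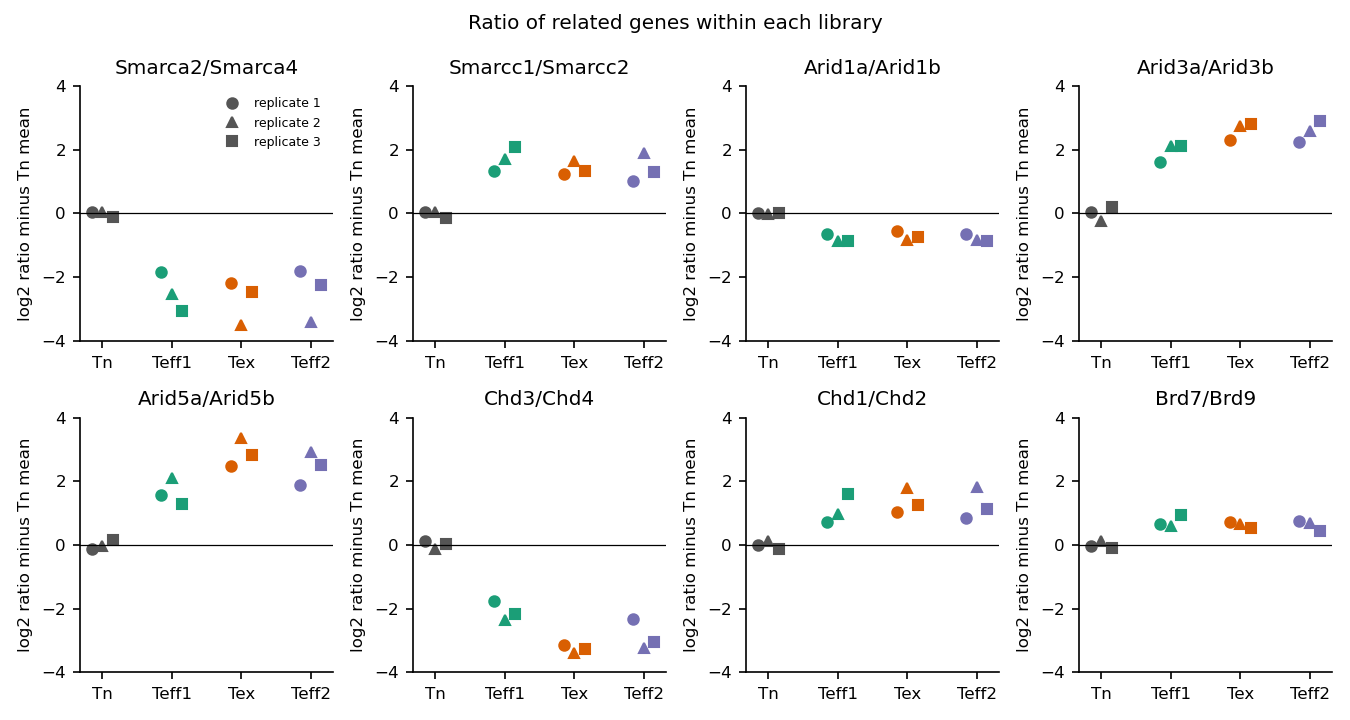
Log2 ratio of 8 pairs of related genes in each library, minus the mean ratio of the 3 Tn libraries, with replicate 1, 2 and 3 as circle, triangle and square. Smarca2/Smarca4 and Chd3/Chd4 lie well below 0 in all 9 cultured libraries, and Arid3a/Arid3b and Arid5a/Arid5b lie well above it.

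From day 2 to day 5 among TIM-3- cells, Teff2 against Teff1, no gene of the set was called by edgeR's quasi-likelihood test, DESeq2 or limma, where 0.558% of all genes were called higher and 0.112% lower. At an unadjusted p under 0.05 there were 4 of 44 (9.09%), beside 11.9% of all genes, and 31 of the 44 log2 fold changes were negative, beside 7193 of 14332 genes. The largest change was that of Chd3, at -0.74 ± 0.27 (adjusted p = 0.272). Its Teff2 values were 264, 145 and 114 CPM, against 327, 266 and 280 CPM in Teff1, so the groups did not overlap and Teff2 replicate 1 lay nearest to Teff1. Without Teff2 replicate 1, Chd3 was called lower at -1.17 (adjusted p = 0.0286), and at -1.07 without replicate 1 of all 3 cultured states (adjusted p = 0.0231).

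At day 5, Tex was set against Teff2, cells sorted apart by TIM-3. Havcr2, which encodes TIM-3, had 34.6, 10.9 and 38.4 CPM in Tex, against 0.612, 0.258 and 0.43 CPM in Teff2. No gene of the set was called by edgeR's quasi-likelihood test, DESeq2 or limma, with 0 at an unadjusted p under 0.05 beside 1.75% of all genes, where 0.00698% of all genes were called higher and 0% lower. Libraries with the same replicate number deviated together, and with the replicate number as a block 0.962% of all genes were called higher and 0.725% lower. In that blocked fit 0 of 43 genes were called by edgeR, and 10 (23.3%) had an unadjusted p under 0.05, beside 16.6% of all genes in that fit.

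Several genes lay lower in Tex than in Teff2 in every pair, without reaching a call. The log2 ratio of Tex to Teff2 of the same number was -0.33, -0.33 and -0.35 for Chd6 (blocked fit -0.35 ± 0.07, adjusted p = 0.0586). Chd3 had 147, 112 and 102 CPM in Tex, against 264, 145 and 114 CPM in Teff2, or -0.84, -0.38 and -0.16 within pairs (blocked fit -0.47 ± 0.12, adjusted p = 0.101). Arid5b differed by -0.55, -0.50 and -0.30 (-0.45 ± 0.13, adjusted p = 0.129), and Arid4b by -0.34, -0.30 and -0.17 (-0.28 ± 0.08, adjusted p = 0.125). In 12 of 44 genes all 3 pairs were lower in Tex and in 5 all 3 were higher, which is 27.3% and 11.4% beside 18.5% and 20.8% of all genes tested. By family, all 3 pairs were lower for 5 of 9 Arid genes, 4 of 10 Chd genes, 2 of 7 Brd genes, 1 of 13 Smarc genes and 0 of 5 Ino80 genes. All 3 were higher for 1 Arid, 1 Chd, 0 Brd, 2 Smarc and 1 Ino80 gene. Among these, Ino80e differed by 0.23, 0.20 and 0.27 (edgeR blocked fit 0.23 ± 0.07, adjusted p = 0.175). These differences did not pass the test, so none is reported as a change.

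**Figure D5:**
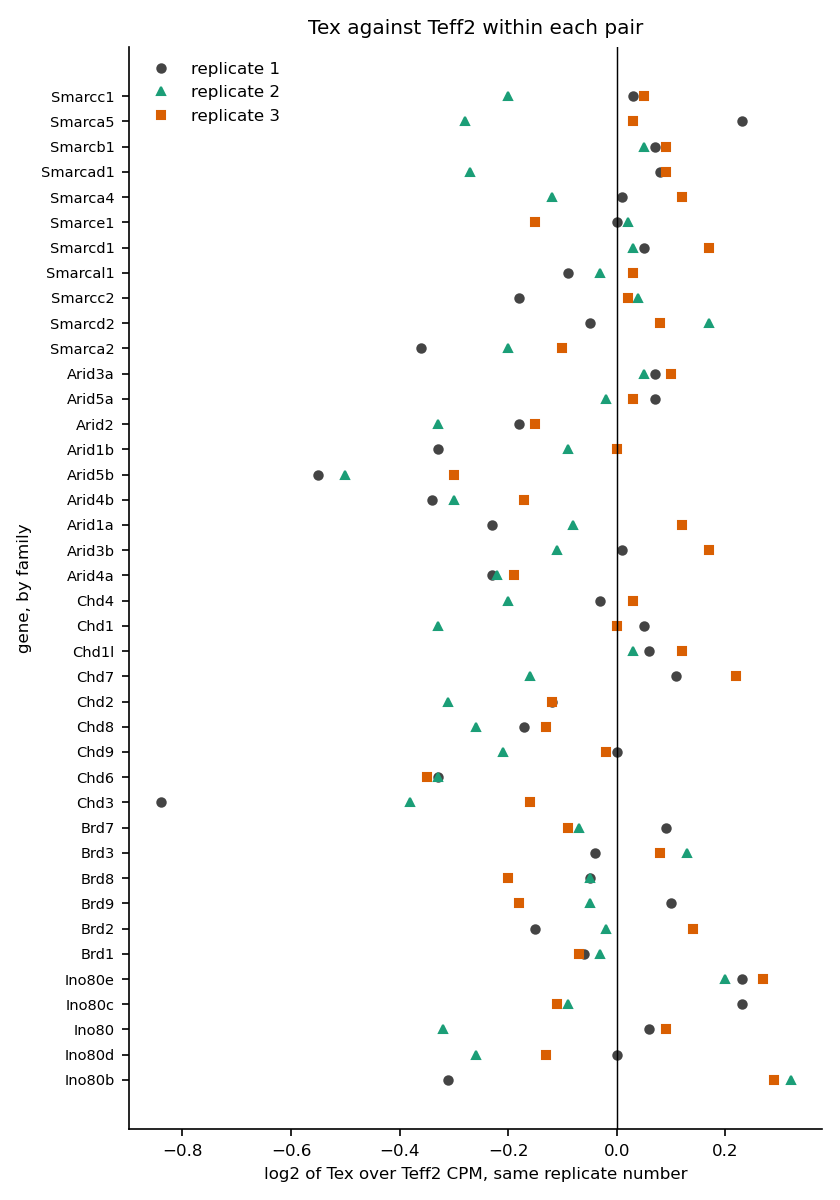
Log2 of Tex over Teff2 CPM within each pair of equal replicate number, for 40 tested genes, without Chd5, Smarca5-ps and Smarcd3, which had few counts. Points of Chd3, Chd6, Arid4a, Arid4b and Arid5b lie left of 0 in all 3 pairs, and those of Ino80e right of 0.

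Partner subunits and relatives of the set are given beside the shares of all genes that rose and fell, which were 24.5% and 24.5% in Teff1, 27.3% and 25.6% in Tex, and 25.6% and 23.3% in Teff2. Of 14 tested BAF, PBAF and ncBAF partners, 4 rose and 4 fell in Teff1 (28.6% each, near the share of all genes), 4 and 6 in Tex (28.6% and 42.9%), and 4 and 5 in Teff2 (28.6% and 35.7%). Phf10, a PBAF subunit, had 102, 135 and 65.4 CPM in Teff1, against 22.2, 24 and 20.3 CPM in Tn (2.18 ± 0.28). Gltscr1 (Bicra), a subunit of non-canonical BAF, had 44.8, 39.4 and 34.7 CPM in Teff1, against 166, 144 and 147 CPM in Tn (-1.94 ± 0.21). Bcl11a was called lower, but its Tn values of 29.6, 1.97 and 34.1 CPM run with the B cell markers of those libraries, whose part in the result was not tested.

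Of 10 NuRD partners, 4 rose and 1 fell in Teff1 (40% and 10%), and 3 rose and 2 fell in both Tex and Teff2, with Cdk2ap1 among the rises (1.92 ± 0.31 in Teff1) and Mta3 among the falls (-0.92 ± 0.15). Of 11 ISWI partners, 5 rose and 4 fell in Teff1 (45.5% and 36.4%), with the histone chaperone Rbbp7 at 1.68 ± 0.19 and Baz2a at -1.11 ± 0.22. The list gave 3 higher and 5 lower in Tex and 4 and 5 in Teff2. Of 25 INO80, SRCAP and TIP60 partners, 5 rose and 5 fell in Teff1 (20% each), 6 and 8 in Tex (24% and 32%), and 6 and 7 in Teff2 (24% and 28%), again near the shares of all genes. The shared helicases Ruvbl1 and Ruvbl2 rose (1.79 ± 0.35 and 1.71 ± 0.32 in Teff1), and Epc1 and Epc2, scaffolds of the TIP60 complex, fell (-1.76 ± 0.22 and -1.06 ± 0.22).

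Among other SNF2-type ATPases more genes rose than fell, and among other bromodomain genes more fell than rose. Of 13 SNF2-type genes, 6 rose and 1 fell in Teff1 (46.2% and 7.69%), 7 and 2 in Tex, and 7 and 0 in Teff2. The recombination genes Rad54l and Rad54b had the largest rises (5.17 ± 0.46 and 4.96 ± 0.42 in Teff1). Of 24 other bromodomain genes, 3 rose and 11 fell in Teff1 (12.5% and 45.8%), and 3 rose and 13 fell in both Tex and Teff2. The acetyltransferase Crebbp had 51.3, 36.5 and 46.6 CPM in Tex, against 209, 202 and 162 CPM in Tn (-2.09 ± 0.23), while the ATPase Atad2 rose (1.68 ± 0.21 in Teff1). Of 11 genes of P-TEFb and its control, a list that also holds the BET target Myc, 3 rose and 4 fell in Teff1 (27.3% and 36.4%), and 2 rose and 5 fell in both day 5 states. Myc rose by 1.79 ± 0.23 in Teff1, and Hexim1, an inhibitor of P-TEFb, had 37.5, 49.8 and 83.9 CPM in Teff1, against 399, 167 and 103 CPM in Tn (-1.97 ± 0.44).

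The median log2 fold changes in Teff1, Tex and Teff2 were -0.05, -0.41 and -0.30 for the BAF partners, 0.17, 0.02 and -0.14 for the NuRD partners, and -0.05, 0.10 and -0.08 for the ISWI partners. For the INO80, SRCAP and TIP60 partners they were -0.08, -0.21 and -0.28, for the other SNF2-type genes 0.29, 0.59 and 0.49, and for the other bromodomain genes -0.51, -0.96 and -0.69. The P-TEFb list had -0.30, -0.23 and -0.36, and all genes had -0.06, 0.00 and 0.00. No gene of these 7 lists was called by edgeR's test in Teff2 against Teff1 or in Tex against Teff2.

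Cell cycle transcripts were higher in the same states. All 22 S phase genes rose in Teff1 (median log2 fold change 3.51) and in Tex (2.87), and 21 rose in Teff2 (2.95). All 20 G2 and M phase genes rose in Teff1 (4.78), and 19 rose in Tex (4.62) and in Teff2 (4.64). Within the 3 cultured states, replicate 1 had higher Arid and Chd values than the mean of the other 2 libraries. The median deviation over the 9 Arid genes was 0.37 in Teff1, 0.30 in Tex and 0.45 in Teff2, and over the 10 Chd genes 0.29, 0.36 and 0.33, beside 0.02, 0.00 and 0.01 over all genes. The G2 and M phase median of the same libraries was -0.32, -1.87 and -2.45. In Tn replicate 1 the Arid median was 0.22 and the Chd median 0.06, with a G2 and M phase median of 0.52. The G2 and M phase genes were low in Tn, with a median log2(CPM + 0.5) of 2.35 beside 6.93 in Teff1. The S phase median deviation of replicate 1 was -0.06 in Teff1, -0.81 in Tex, -0.87 in Teff2 and 0.27 in Tn. What part cell division has in the differences between the states was not tested.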

How the data were processed

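Bulk RNA-seq of 12 libraries was read from 2 deposited matrices; 4 Hi-C samples were not analysed here. The deposited raw counts are whole numbers per gene symbol, and the deposited normalized matrix of the authors holds log2-scale values whose transformation is not stated in the sources used here. The submitters' processing notes name mm10, BWA, Juicer, HISAT2, HTSeq and DESeq2, without settings or versions. Strandedness of the counting is not given in the sources used here, so antisense and overlapping genes cannot be told apart. Coordinates and promoter sequences are RefSeq's on GRCm38.p6.

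Counts were tested with edgeR 4.0.16 in R 4.3.3 (TMM factors, filterByExpr, all 12 libraries, group as the only term, quasi-likelihood F test, Benjamini-Hochberg over 14332 genes). CPM are TMM-scaled. SE was taken as the log2 fold change over the square root of F. The edgeR fit was run on simulated counts with equal dispersion in all genes, independent libraries and few changed genes. That setting differs from these data, so it does not show how the fit performs on them. Alternatives used DESeq2 1.42.0, limma 3.58.1 on the deposited log2 values, other factors, filters and sample sets.

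Equal replicate numbers of Tex and Teff2 deviated together (r = 0.81, 0.72 and 0.67 for replicates 1, 2 and 3), so they were treated as pairs; the labels do not state it. In the other comparisons at least 1 number had r of 0.1 or less. For Teff2 against Teff1, r was 0.5, 0.25 and 0.04 for replicates 1, 2 and 3, so some of these libraries may not be independent.

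The genes, the lists and the rule for named genes were chosen with earlier results of these data known. By that rule, values go to genes with at least 2 CPM called with at least 2-fold change, to the largest changes of each family and to paralog pairs; up to 2 called rises and 2 falls of each partner list with at least 5 CPM are named per comparison. Kmt2a, Mrgbp, Ercc6l2, Bicra and Adgre1 were read under older symbols; Bicral, Hbb-bs and Hbb-bt had no matching symbol. The values of 1 gene of the set are not reported here, though the counts over the set and the paralog pairs include it.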

Additional observations from a re-analysis of the deposited data

How the results depend on the processing

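The counts of genes called against Tn stayed within 1.5 times their value under other scaling factors, filters, tests and sample sets, with 2 exceptions. With Tn replicate 2 as the sole Tn library, 4 genes in place of 9 were called higher in Teff1, and 9 in place of 18 lower in Teff2; that lone library was assumed to vary like the other groups. Leaving out each of the 12 libraries in turn gave 6 to 11 genes higher and 9 to 16 lower in Teff1, 5 to 8 higher and 15 to 18 lower in Tex, 5 to 8 higher and 14 to 19 lower in Teff2, and 0 to 1 lower in Teff2 than Teff1. That 1 gene, Chd3, was also called without replicate 1 of Teff1, Teff2 and Tex together. Under every alternative run for the comparison, Arid3a, Smarca5, Smarcb1 and Smarcc1 stayed higher in Teff1 and Arid1a, Arid3b, Arid4a, Arid4b, Brd1, Chd3, Chd6, Chd8 and Smarca2 lower. The replicate block on all 12 libraries gave 9 higher and 17 lower in Teff1, 7 and 20 in Tex, and 8 and 21 in Teff2; for Tex against Teff2 it called 0 genes of the set. No result changed sign among those called. The paralog count ranged from 12 to 14 of 16 pairs. Depth limits Smarcd3, Chd5 and Smarca5-ps, which had about 5 CPM or less. The cause of these shifts was not tested.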
